A study of Mus musculus with 8 samples.

Results

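The pan-neuronal and synaptic vesicle genes described here are 10 genes that most neurons transcribe: Syp, Syt1, Snap25, Celf4, Elavl2, Elavl3, Rbfox3, Eno2, Stmn2 and Tubb3. They were taken as a named set, and each was read from a probe set that the platform annotation maps to its symbol alone. All 10 were measured, among 16026 genes tested, and each was represented by 1 probe set. RNA labelled as cervical spinal cord, from male C57BL/6 mice, was hybridised to 8 Affymetrix whole-transcript arrays, 2 in each of 4 groups. The growth protocol gives the mice as 6 weeks old, and whether before or after the 4 weeks of treatment is not stated here. The MPTP group received injections into the peritoneum of MPTP, a toxin taken up by dopaminergic neurons and used in mice to model parkinsonism, at 20 mg/kg of free base in 0.9% saline every 24 h for 4 weeks. The MPTP and acupoint group received the same MPTP course and hand needling at the leg and foot points GB34 (3 mm deep) and LR3 (1 mm deep), 2 h after MPTP and every 48 h, in 14 sessions. The MPTP and hip group received MPTP and was needled on the same schedule at both hips (3 mm deep), away from those points. The Control group received 0.9% saline once a day for 4 weeks. No group received needling without MPTP, so needling can be compared within MPTP-treated mice only.

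The protocol gives 9 mice for the MPTP group and 9 for the Control group, RNA from 2 samples per group was extracted, and the sample titles number 1 mouse per sample, mouse 1 and mouse 2 of each group. With 2 arrays against 2, the smallest exact permutation p for a single gene is 0.333, so single genes rest on a test that shares its estimate of spread over all genes, and the number of arrays limits the precision. In RNA from whole tissue, fewer cells of a type and less RNA per cell cannot be told apart.

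At a chemical synapse, transmitter is packed into vesicles that dock at the terminal, fuse with its membrane when calcium enters, and are then retrieved. Fusion is driven by SNARE proteins, which sit on the vesicle and on the target membrane and wind together, and a calcium sensor on the vesicle triggers it. Genes of this machinery are read together with neuronal RNA-binding proteins, neuronal enolase and neuronal microtubule proteins as marks of neurons as such, whatever their transmitter. In the spinal cord they are carried by motor neurons, by the excitatory and inhibitory interneurons of the grey matter and, as RNA, hardly by the axons of the white matter.

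In MPTP cords, 8 of the 10 genes were higher than in Control cords and none was lower, at an adjusted p under 0.05 by limma's moderated test over all genes. They were the 3 vesicle and fusion genes Syp, Syt1 and Snap25, the RNA-binding protein genes Celf4, Elavl2 and Elavl3, the enolase Eno2 and the microtubule regulator Stmn2. The differences ran between 0.29 and 0.62 on the log2 scale, which is 1.22-fold to 1.54-fold. Tubb3 and Rbfox3 did not pass, with differences of 0.04 and −0.12. Of all 16026 genes tested, 13.7% were called higher and 3.1% lower in the same comparison, and of the 2829 genes whose mean signal lies within the range of the 10 genes, 32.9% were called higher. The median difference of the 10 genes was 0.32, against 0.061 for all genes tested and 0.20 for the genes of like signal, whose interquartile range was 0.03 to 0.37.

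Values below are log2 signals after robust multi-array averaging (RMA), given for replicates 1 and 2 of each group. A difference of 1 on this scale is a 2-fold change, and levels are not compared between genes because each gene has probes of its own. Syp encodes synaptophysin, an abundant membrane protein of synaptic vesicles. It stood at 11.25 and 11.24 in MPTP, 11.28 and 11.28 in acupoint, 11.22 and 11.17 in hip and 10.97 and 10.89 in Control samples. All 6 MPTP-treated arrays lay above both Control arrays, by at least 0.20, while those 6 spanned 0.11. The MPTP minus Control difference was 0.32 (SE 0.06, n = 2 each), with an adjusted p of 0.011 by limma.

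Syt1 encodes synaptotagmin 1, the calcium sensor for fast release. Its signal was 10.36 and 10.37 in MPTP, 10.52 and 10.44 in acupoint, 10.40 and 10.26 in hip and 10.09 and 9.90 in Control samples. Again the groups with MPTP did not overlap the Control group, and the acupoint arrays were the highest pair. The MPTP minus Control difference was 0.37 (SE 0.085, n = 2 each), with an adjusted p of 0.0194 by limma. Snap25 encodes a SNARE protein of the presynaptic membrane. It read 12.50 and 12.49 in MPTP, 12.25 and 12.45 in acupoint, 12.44 and 12.49 in hip and 12.09 and 12.01 in Control samples. Acupoint replicate 1 was the lowest of the 6 MPTP-treated arrays, and still lay 0.16 above the higher Control array. Snap25 differed by 0.44 between MPTP and Control (SE 0.08, n = 2 each; limma adjusted p 0.00693).

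Among the RNA-binding proteins, Celf4 acts on the translation and stability of neuronal mRNAs. Its values were 9.09 and 9.14 in MPTP, 9.12 and 9.17 in acupoint, 9.05 and 8.89 in hip, and 8.69 and 8.38 in Control samples. The Control replicates lay 0.31 apart, wider than the 0.28 spanned by the 6 MPTP-treated arrays, and the sets did not overlap. The MPTP minus Control difference was 0.58 (SE 0.11, 95% interval 0.34 to 0.82, limma adjusted p 0.00869). Elavl2 and Elavl3 encode the neuronal Hu proteins HuB and HuC, which bind AU-rich stretches and stabilise and splice neuronal transcripts. Elavl2 had 9.35 and 9.29 in MPTP, 9.15 and 9.28 in acupoint, 9.24 and 9.27 in hip and 8.89 and 9.09 in Control samples. Its lowest MPTP-treated array was only 0.06 above the higher Control array, the narrowest gap among the 8 genes, and its difference was 0.33 (SE 0.09, limma adjusted p 0.0368). Elavl3 had 9.66 and 9.55 in MPTP, 9.51 and 9.64 in acupoint, 9.63 and 9.48 in hip and 9.32 and 9.27 in Control samples. It differed by 0.31 (SE 0.09, limma adjusted p 0.0373), without overlap between MPTP and Control arrays.

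Rbfox3 encodes NeuN, the nuclear splicing regulator whose antibody is widely used to count neurons. It read 8.77 and 8.69 in MPTP, 8.78 and 8.77 in acupoint, 8.77 and 8.72 in hip and 8.81 and 8.90 in Control samples. Both Control arrays were the highest of the 8, the opposite order to the other 9 genes' MPTP minus Control direction. The difference of −0.12 (SE 0.08, 95% interval −0.30 to 0.06) did not pass by limma, with an adjusted p of 0.336. It was −0.22 after quantile normalization, −0.26 after cyclic loess and 0.04 when every array was centred on its median. Of 20 alternatives run, 19 kept the negative sign and 0 passed. Thus 3 of the 4 RNA-binding protein genes passed the test and Rbfox3 did not.

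Eno2 encodes neuron-specific enolase, the glycolytic enzyme form of mature neurons. It stood at 11.86 and 11.85 in MPTP, 11.74 and 11.83 in acupoint, 11.83 and 11.79 in hip and 11.25 and 11.21 in Control samples. The 6 MPTP-treated arrays spanned 0.12 and the lowest of them lay 0.49 above the higher Control array. The difference of 0.62 (SE 0.06, 95% interval 0.48 to 0.76, n = 2 each) was the largest of the 10 and had a limma adjusted p of 0.00155. Stmn2 encodes stathmin-2, a growth-associated regulator of axonal microtubules. It had 11.83 and 11.78 in MPTP, 11.68 and 11.84 in acupoint, 11.82 and 11.77 in hip and 11.53 and 11.49 in Control samples. The groups with MPTP lay above Control without overlap, and the MPTP difference was 0.29 (SE 0.07, limma adjusted p 0.0227). Tubb3 encodes the neuronal class III beta-tubulin. It had 10.54 and 10.51 in MPTP, 10.44 and 10.58 in acupoint, 10.56 and 10.65 in hip and 10.48 and 10.50 in Control samples. The acupoint pair enclosed the Control pair, and the MPTP minus Control difference was 0.04 (SE 0.07, 95% interval −0.13 to 0.20, limma adjusted p 0.779). It turned to −0.04 after quantile normalization and to −0.12 after cyclic loess.

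**Figure D1:**
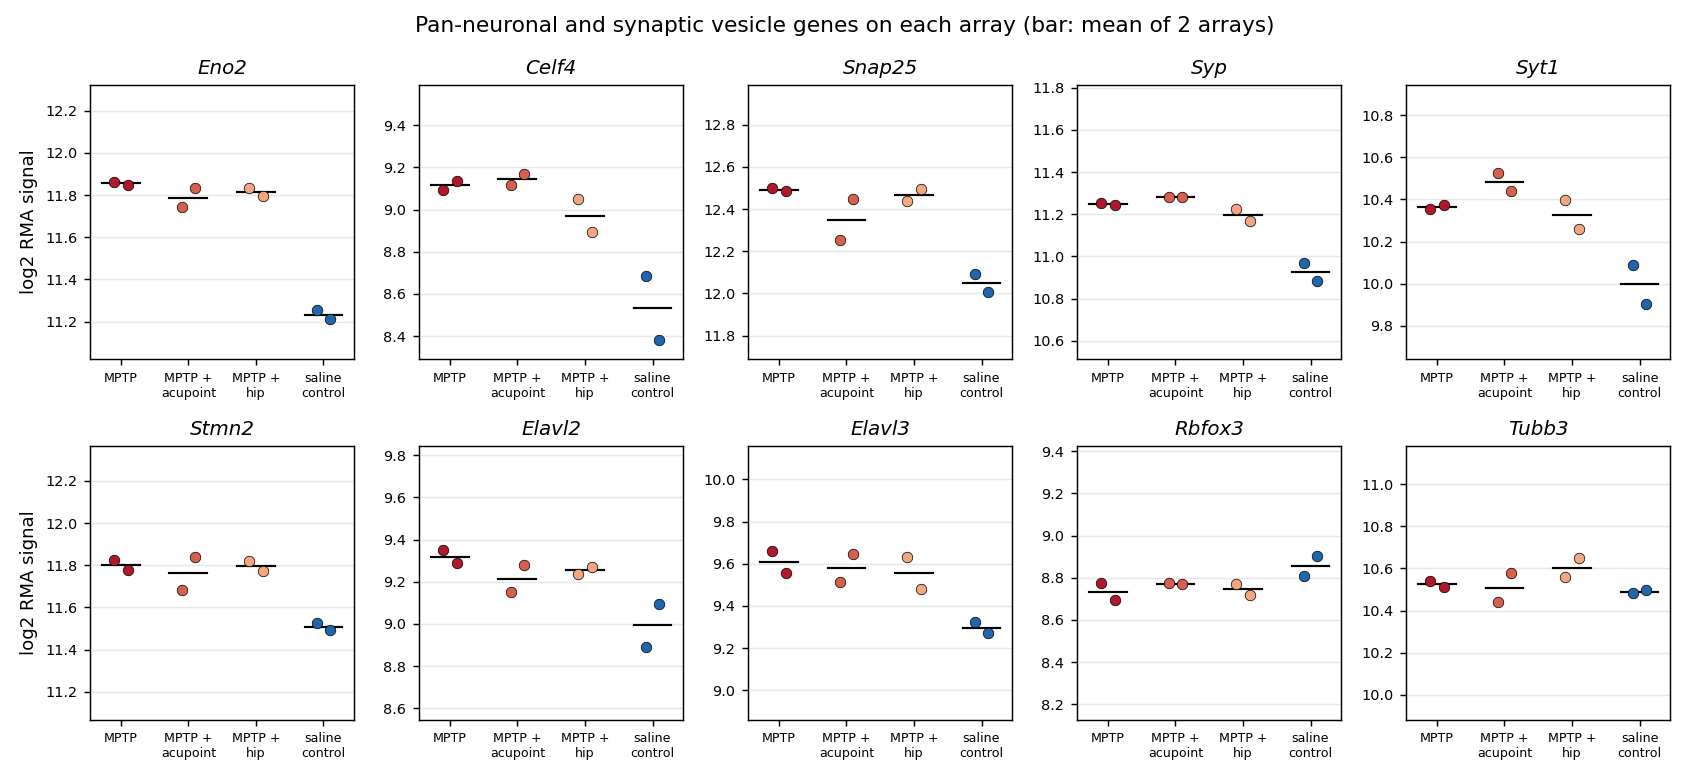
Log2 RMA signal of the 10 genes, 1 panel per gene, with 1 point per array and a bar at the mean of 2 arrays, for MPTP, acupoint, hip and Control groups; every panel spans the same log2 range. The Control points are the lowest pair for 8 genes, the highest pair for Rbfox3 and within the others for Tubb3.

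Counted by overlap alone, 9 genes had both MPTP arrays above both Control arrays and Rbfox3 had both below. The order of the 9, higher without overlap, was seen in 41.9% of all genes tested and in 68.9% of the genes of like signal. The share of genes in the opposite order, that of Rbfox3, is not given here. Each gene was also set beside the genes nearest to it in mean signal, up to 100 above and 100 below. The share of these neighbours called higher by limma ran between 25.5% for Rbfox3 and 50.4% for Snap25. Eno2 exceeded the median of its neighbours by 0.38, and 6 of its 195 neighbours had a larger difference. Celf4 exceeded its neighbours' median by 0.36, with 13 of 200 larger, and Snap25 by 0.20, with 19 of 129 larger. These 3 stood furthest above genes of their own signal. Syt1, Elavl2, Syp, Elavl3 and Stmn2 were 0.14, 0.13, 0.11, 0.10 and 0.05 above their neighbours' medians, with 50, 61, 67, 70 and 77 neighbours larger. Tubb3 was 0.21 and Rbfox3 0.30 short of the neighbour median, where 159 and 176 of 200 neighbours had larger differences. These places among neighbours are a description, with no test.

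**Figure D2:**
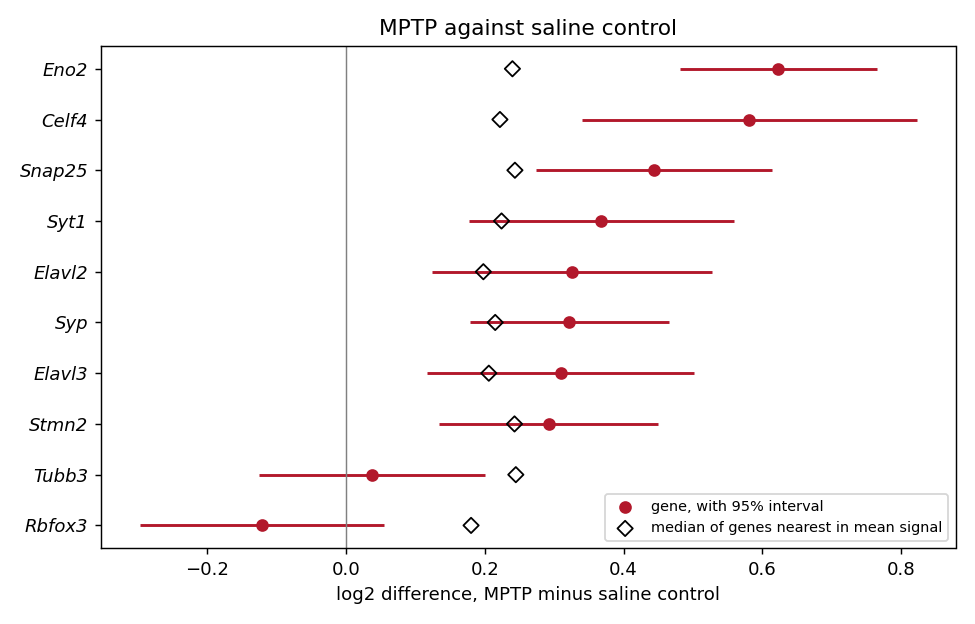
MPTP minus Control difference of each gene on the log2 scale (filled points, lines for the 95% interval from limma), with the median difference of the genes nearest in mean signal (open diamonds). The intervals of Eno2, Celf4 and Snap25 lie wholly above their diamonds, and those of Rbfox3 and Tubb3 wholly below.

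**Figure D3:**
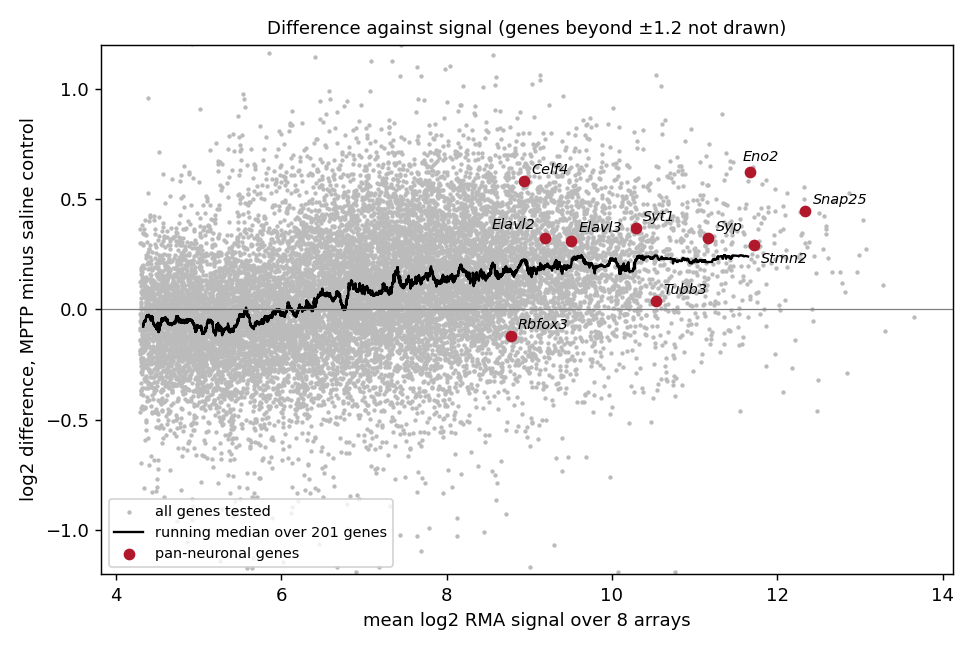
MPTP minus Control log2 difference against mean log2 RMA signal over 8 arrays for all genes tested (grey), the running median over 201 genes (black line) and the 10 genes (red); genes beyond 1.2 in either direction are not drawn. The running median is above 0 over the signal range of the 10 genes, and Eno2 at 0.62 and Celf4 at 0.58 stand furthest above it.

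The calls depended on single arrays more than the sizes did. Fewer of the 10 passed when an MPTP or a Control array was left out, which leaves that group with 1 array. Its spread is then assumed to be like that of the others. Fewer of all genes tested and of genes of like signal passed too, so the loss was not particular to the 10. Elavl2 and Elavl3 also dropped below the threshold when either hip array was left out. The 8 differences were 0.83 to 1.04 times their all-array values without MPTP replicate 1, 0.96 to 1.17 times without MPTP replicate 2, 0.69 to 1.26 times without Control replicate 1 and 0.74 to 1.31 times without Control replicate 2. After cyclic loess normalization 3 of the 10 passed, Eno2, Celf4 and Snap25, and after a second quantile normalization 5 passed, those 3 with Syp and Stmn2.

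Promoter sequence is shown for 3 genes with unlike outcomes, Eno2 with the largest difference, Syp as the vesicle membrane protein, and Tubb3, which did not pass. Each is the 250 bases before the annotated start, read 5′ to 3′ on the gene's strand, from RefSeq on build GRCm38.p6: chr6:124769674-124769923 on the minus strand for Eno2, chrX:7638330-7638579 on the plus strand for Syp and chr8:123411303-123411552 on the plus strand for Tubb3. Capitals mark matches on either strand to GGGCGG (a GC box), to CCAAT (the CAAT box), to TATAA (the TATA box), and to CAGCACC or its partner GGACAGC, letters from the left and right arms of the element bound by REST, which represses neuronal genes in other cells.
Eno2: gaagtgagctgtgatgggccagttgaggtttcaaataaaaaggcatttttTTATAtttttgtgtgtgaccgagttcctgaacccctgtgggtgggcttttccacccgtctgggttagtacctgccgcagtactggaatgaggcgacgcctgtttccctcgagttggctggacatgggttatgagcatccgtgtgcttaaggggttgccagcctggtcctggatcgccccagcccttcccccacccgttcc
Syp: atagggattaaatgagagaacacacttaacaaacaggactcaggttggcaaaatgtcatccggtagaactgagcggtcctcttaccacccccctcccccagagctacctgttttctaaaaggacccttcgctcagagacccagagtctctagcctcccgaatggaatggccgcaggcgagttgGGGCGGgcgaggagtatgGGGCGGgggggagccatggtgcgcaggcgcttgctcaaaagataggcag
Tubb3: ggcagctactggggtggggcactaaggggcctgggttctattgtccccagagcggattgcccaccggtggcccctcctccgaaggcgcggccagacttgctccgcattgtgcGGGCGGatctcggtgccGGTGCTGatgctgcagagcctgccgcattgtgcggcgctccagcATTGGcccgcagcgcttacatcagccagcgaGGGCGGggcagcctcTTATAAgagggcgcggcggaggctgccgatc

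Tubb3 held the most matches of the 3: 2 GC boxes, 1 CCAAT on the opposite strand, overlapping TATAA matches on both strands near base −30 and 1 CAGCACC on the opposite strand. Syp held 2 GC boxes, and Eno2 held 1 TATAA on the opposite strand, far upstream in its window. The GC content was 54.4% for Eno2, 56.4% for Syp and 68% for Tubb3. Windows were found for 7 of the 10 genes, all but Snap25, Stmn2 and Celf4, and a gene with several starts had several. The 7 genes had 13 windows, and the table holds 32851 of that length. GGGCGG was found in 9 of the 13, in 5 genes, and in 32.7% of all windows. CCAAT was in 9 of the 13, in 5 genes, and in 33.8% of all, and TATAA in 3, in 3 genes, and in 22.8% of all. CAGCACC was in 1 of the 13 and 5.73% of all, and GGACAGC in 0 of the 13 and 5.28% of all. Rbfox3, like Tubb3, had a CCAAT match, as did the called genes Elavl2, Elavl3 and Syt1. A match is a description of letters in the window.

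No difference in the 10 genes between needled and MPTP groups, or between the needling sites, was detectable with 2 arrays a group. In acupoint minus MPTP, hip minus MPTP and acupoint minus hip, limma called 0 of the 10 genes and 0% of the 16026 genes tested, while 201, 273 and 604 of all genes and 0 of the 10 had an unadjusted p under 0.05. The acupoint minus MPTP differences ran between −0.14 for Snap25 and 0.12 for Syt1, with a median of −0.023. In hip minus MPTP they ran between −0.14 for Celf4 and 0.08 for Tubb3, with a median of −0.040. Acupoint minus hip gave −0.12 for Snap25 to 0.17 for Celf4, with a median of −0.0023.

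Some pairs of needled and MPTP arrays did not overlap all the same. The acupoint arrays lay above both MPTP arrays for Syp and Syt1 and below both for Eno2, Snap25 and Elavl2, so 5 of 10 were separate, where 24.3% of all genes tested were. The hip arrays lay above both MPTP arrays for Tubb3 and below both for Eno2, Celf4, Syp and Elavl2, 5 of 10 where 36.3% of all genes were. Between the needled groups, the acupoint arrays lay above the hip arrays for Celf4, Syp and Syt1, 3 of 10 where 28.3% of all genes were separate. None of these differences passed a test. The intervals were widest for Celf4, at −0.39 to 0.10 in hip minus MPTP and −0.07 to 0.41 in acupoint minus hip, so changes of that size are within the error.

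**Figure D4:**
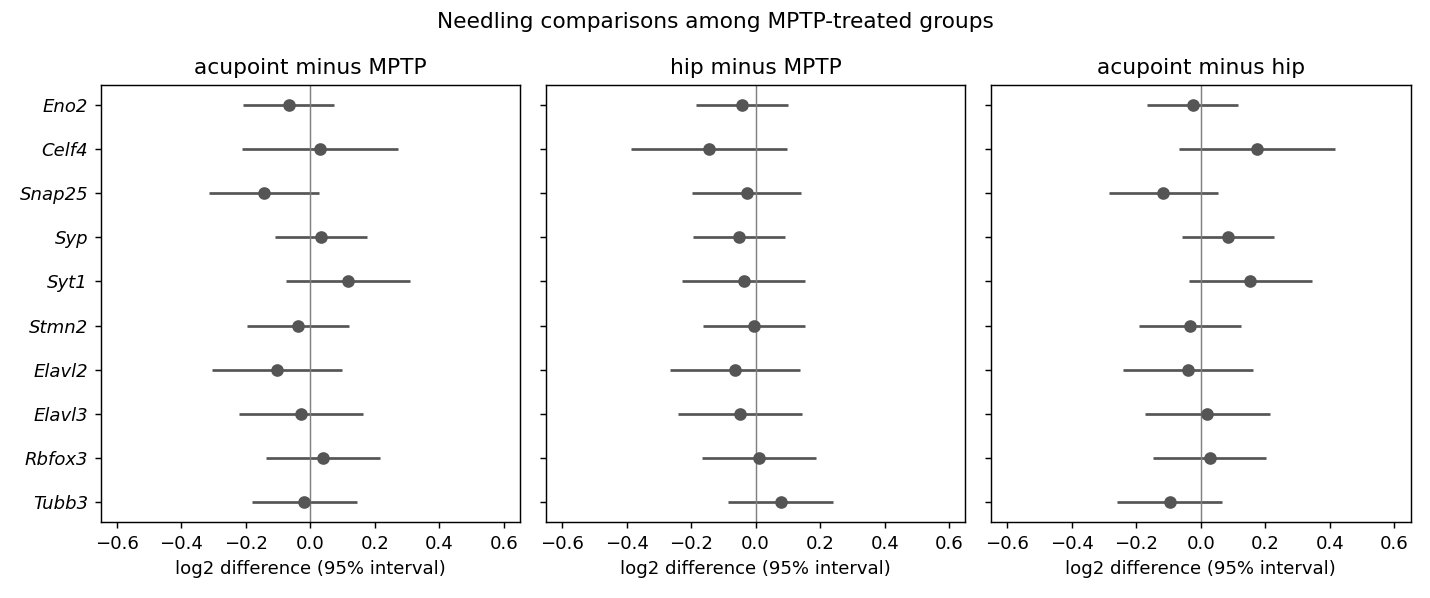
Differences of the 10 genes in acupoint minus MPTP, hip minus MPTP and acupoint minus hip, on the log2 scale, with 95% intervals from limma. All points lie between −0.14 and 0.17, and every interval includes 0.

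Against Control, the acupoint and hip groups gave differences of the same order as MPTP alone, and all these comparisons share the Control arrays. In acupoint minus Control, limma called 6 of the 10 genes higher, where 9.55% of all genes and 24.5% of genes of like signal were. They were Celf4 at 0.61, Eno2 at 0.56, Syt1 at 0.48, Syp at 0.35, Snap25 at 0.30 and Stmn2 at 0.25. Elavl3 at 0.28 and Elavl2 at 0.22 did not pass, with limma adjusted p-values of 0.0642 and 0.144. Over all genes, calls rose without acupoint replicate 1 and fell with any other array left out, as they did among the 10. Leaving out Control replicate 2 left Eno2 alone past the threshold, and leaving out acupoint replicate 1 added Elavl3. Without Control replicate 1, either MPTP array, acupoint replicate 2 or either hip array, the 4 that passed were Eno2, Celf4, Syp and Syt1.

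In hip minus Control, limma called 6 of the 10 higher, where 15.4% of all genes and 37% of genes of like signal were. They were Eno2 at 0.58, Celf4 at 0.44, Snap25 at 0.42, Syt1 at 0.33, Stmn2 at 0.29 and Syp at 0.27. Elavl2 and Elavl3, both at 0.26, had limma adjusted p-values of 0.0719 and 0.0616. Eno2 alone passed without Control replicate 2 or without either hip array, 3 passed (Eno2, Celf4 and Snap25) without either MPTP array, and 5 without Control replicate 1. All 8 of the genes called in MPTP passed without either acupoint array. Over all genes too, calls in hip minus Control fell without a Control, MPTP or hip array and rose without an acupoint array. The mean of the 3 MPTP-treated groups minus Control called the same 8 genes as MPTP minus Control. In that mean 19.9% of all genes and 44.4% of genes of like signal were called higher. In that mean Eno2 was at 0.59, Celf4 at 0.54, Syt1 and Snap25 at 0.39, Syp at 0.32, Stmn2 and Elavl3 at 0.28 and Elavl2 at 0.27. Without Control replicate 2, 5 passed (Eno2, Celf4, Snap25, Syp and Elavl2), and leaving out any other array left 6 to 8. For these 8 genes all 6 MPTP-treated arrays lay above both Control arrays, an order seen in 26.1% of all genes and 50.2% of those of like signal. For Rbfox3 all 6 lay below, an order whose share among all genes is not given here.

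Lists of other neuronal genes, which leave out the 10, were called higher in unequal shares. For scale, 13.7% of all genes and 32.9% of genes as bright as the 10 were called higher, and the lists were not matched for signal. Of 27 other synaptic vesicle protein genes measured, 10 (37.0%) were called higher and 0 lower in MPTP minus Control, and their median difference was 0.28. The smallest p-values belonged to Rab3c, a vesicle GTPase (0.78), Syt2, the synaptotagmin of fast spinal and brainstem synapses (0.54), Slc17a6, the vesicular glutamate transporter VGLUT2 (0.75), and the vesicle protein gene Sv2b (0.59). Slc17a6 was at 11.35 and 11.42 on the MPTP arrays, against 10.77 and 10.50 on the Control arrays. Rab3c was at 9.87 and 9.84 on the MPTP arrays, against 9.04 and 9.11 on the Control arrays. Both were without overlap, while Syn1, which encodes synapsin 1 on the vesicle surface, differed by 0.03 and overlapped.

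Of 26 genes for release and SNARE machinery, 5 (19.2%) were higher and 0 lower, with a median of 0.14. They were Napb (0.67), Napa (0.40) and Nsf (0.30), which take spent SNARE complexes apart, Ppfia2 (0.44), a scaffold of the active zone, and Cadps2 (0.41), which primes dense-core vesicles. Of 17 vesicle endocytosis genes, 2 (11.8%) were higher and 0 lower, Stx7 (0.54) and Amph (0.30), the gene for amphiphysin. The release share was below that of genes as bright as the 10, and the endocytosis share was also below that of all genes. The endocytosis list's median was 0.11, and turned to −0.037 after cyclic loess.

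Of 15 other neuronal RNA-binding protein genes, 3 (20%) were higher, Fmr1 (0.37), Ptbp2 (0.34) and Rbfox2 (0.26), and 1 was lower, Msi1 at −0.42, with a median of 0.096. Msi1, better known for neural progenitor cells and glia, had 7.12 and 7.12 in MPTP samples, against 7.41 and 7.67 in Control samples. Of 17 neuronal microtubule genes, 6 (35.3%) were higher and 0 lower, with a median of 0.19. They included Dpysl2 (0.54) and Crmp1 (0.66), collapsin response mediators, and the tubulins Tubb2a (0.49) and Tubb2b (0.65), beside the 0.04 of Tubb3. Of 20 further pan-neuronal genes, 7 (35%) were higher, among them the axonal motor Kif5a (0.48), the dense-core granule proteins Chga (0.65) and Chgb (0.62) and the calcium sensor Vsnl1 (0.34). The neurofilament gene Ina was the 1 that was lower, at −0.33.

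Over these 6 lists together, 33 of 122 genes (27.0%) were higher and 2 lower, a share above the 13.7% of all genes and below the 32.9% of genes as bright as the 10. Without MPTP replicate 1, MPTP replicate 2, Control replicate 1 or Control replicate 2, fewer of the 122 and fewer of all genes were called higher. The median of the 122, 0.17 with all arrays, stayed between 0.14 and 0.17 over these 4 settings. After cyclic loess it was 0.031, with 16 higher and 6 lower. It exceeded the median of all genes by 0.11 as deposited, but lay at −0.0062 relative to it after cyclic loess and −0.0111 after quantile normalization. The pooled median thus had no excess over all genes at either setting. Of the 122, 19.7% were higher after quantile normalization and 13.1% after cyclic loess, where 2047 of 16023 and 1338 of 16026 genes tested were. Genes as bright as the 10 were higher in 25.2% and 17.5%. At both settings the vesicle and other pan-neuronal medians lay above that of all genes, and the release, endocytosis and RNA-binding medians below. The microtubule median lay below after quantile normalization and above after cyclic loess.

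**Figure D5:**
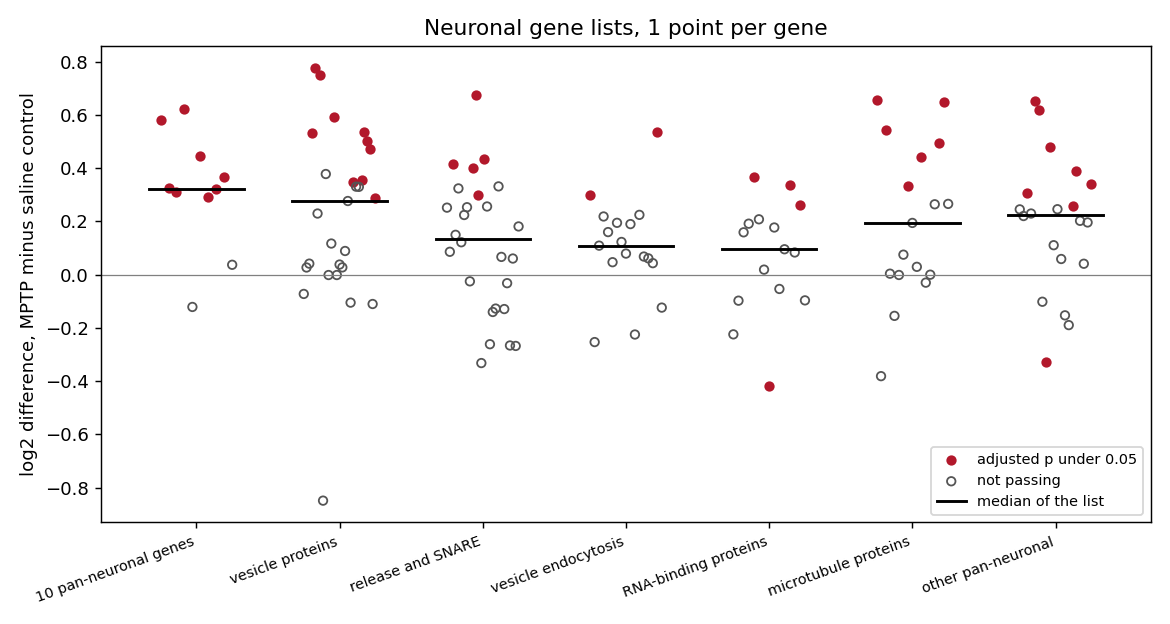
MPTP minus Control log2 difference, 1 point per gene, for the 10 genes and 6 other neuronal lists, with filled points at an adjusted p under 0.05 by limma, open points not passing and a bar at each list's median. The medians lie between 0.096 for the RNA-binding proteins and 0.32 for the 10 genes.

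Paralogs of the 10 genes, listed as not specific to neurons, were measured beside them. Of 12, 5 (41.7%) were higher and 1 was lower in MPTP minus Control, with a median of 0.33, against 13.7% of all genes and 32.9% of genes as bright as the 10. The list was not matched for signal. Its median was 0.32 without MPTP replicate 1, 0.36 without MPTP replicate 2, 0.47 without Control replicate 1 and 0.22 without Control replicate 2. Fewer of all genes were called higher at these settings. Among the called genes were Tubb5 (0.60), a tubulin of dividing and developing cells, Snap47 (0.52), Snap29 (0.47) and Elavl1 (0.30), the Hu protein that all tissues make. The lower one was Eno3, the enolase of skeletal muscle, at −1.56, with 5.90 and 6.15 in MPTP, against 6.72 and 8.45 in Control samples. The largest difference of the list was 0.65, the value given above for Tubb2b among the neuronal microtubule genes. Both lists also had the same highest difference in hip minus Control, 0.79, so they appear to share a gene. The paralog list is therefore not a purely non-neuronal contrast. Its share called higher was near that of the vesicle list, and no test of the difference between the lists was made.

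Glial and vascular markers were called higher in the same comparison, where 13.7% of all genes and 32.9% of genes as bright as the 10 were. These marker lists were not matched to the 10 for signal. Of 15 astrocyte markers 12 (80%) were higher and 0 lower, with a median of 0.40. Of 16 oligodendrocyte markers 6 (37.5%) were higher, with a median of 0.22, of 18 microglia and macrophage markers 8 (44.4%), with a median of 0.40, and of 9 endothelial markers 3 (33.3%), and none of these was lower. Over all genes, fewer were called higher when an MPTP or a Control array was left out. The medians for astrocyte, oligodendrocyte, microglia and endothelial markers were 0.40, 0.22, 0.35 and 0.34 without MPTP replicate 1. They were 0.44, 0.26, 0.41 and 0.37 without MPTP replicate 2. Without Control replicate 1 they were 0.46, 0.24, 0.50 and 0.47, and without Control replicate 2 they were 0.35, 0.20, 0.35 and 0.20.

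All 15 skeletal muscle markers were measured, and 11 were lower and 0 higher in MPTP, where 3.1% of all genes were lower, with a median of −2.44. Over all genes, fewer were called lower when an MPTP or a Control array was left out. The muscle median was −2.53 without MPTP replicate 1 and −2.35 without MPTP replicate 2. The median was −1.68 without Control replicate 2 and −3.45 without Control replicate 1. Their mean signal was 5.86 and 5.80 in MPTP, 6.99 and 5.63 in acupoint, 5.56 and 5.94 in hip and 7.48 and 8.94 in Control samples. Both Control arrays carried more muscle signal than any MPTP-treated array, and acupoint replicate 1 the next most. With Control replicate 2 and acupoint replicate 1 left out together, a setting chosen after seeing the data, the same 8 of the 10 genes passed and the median of the 10 was 0.28. Genes as bright as the 10 were called higher more often at that setting than with all arrays. With Control replicate 2 alone left out, fewer of the 10 and fewer of those genes were called higher. The single Control array left is assumed to vary like the other groups.

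Nuclear non-coding RNAs enriched in neurons went the other way from the 8 called genes. Of 7 listed, 3 were measured and limma called all 3 lower in MPTP minus Control, where 3.1% of all genes were. The differences were −2.09 for Rian, −1.43 for Snhg11 and −1.19 for Meg3. Meg3 had 9.82 and 9.88 in MPTP, 9.65 and 9.82 in acupoint, 9.60 and 9.73 in hip and 11.09 and 10.99 in Control samples. All 6 MPTP-treated arrays lay below both Control arrays, an order whose share among all genes is not given here. Of 7 Schwann cell markers, 0 passed by limma and 0 had an unadjusted p under 0.05. Of 8 sensory ganglion markers 1 (12.5%) was called higher, of 10 meningeal markers 1 (10%) and of 4 erythroid markers 1 (25%). Of all genes, 13.7% were, and none of these lists had a lower call in MPTP minus Control. An unadjusted p under 0.05 by limma was found for 5 sensory ganglion, 1 meningeal and 1 erythroid marker. The median was −0.26 for both the sensory ganglion and the meningeal list, and 0.14 for the erythroid list. Without Control replicate 1 the sensory ganglion median was 0.03 and the meningeal 0.36. Without Control replicate 2 they were −0.43 and −0.98. In the mean of the 3 MPTP-treated groups, 1 sensory ganglion marker was called higher and 2 lower, where 3184 of 16026 genes were higher and 857 lower. The mean meningeal signal ran between 6.57 and 8.23 on the MPTP-treated arrays, and was 8.06 and 6.85 on the Control arrays, which overlap. The part of muscle, glial, vascular and nuclear RNA in the differences of the 10 genes was not tested.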

How the data were processed

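The authors deposited values on a log2 scale, 1 for each array at each of 35557 probe sets, and the range of the values gave the base. Affymetrix Expression Console and RMA are named, without versions, per the submitters' processing notes. RMA corrects background, equalises the distributions of probe signals across arrays and summarises probes, and does not record whether a probe set exceeds background. No scanner file or date of scanning was used, so batches were not examined.

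In the platform annotation 21789 probe sets had 1 symbol, 1621 had several and 12147 had none. Of the 21789, 21698 matched a RefSeq gene table of GRCm38.p6 by Entrez identifier, with 0 symbols renamed. Probe sets with 1 symbol and a mean above the 30th percentile of all (4.30) were kept, 17581 in number, and the brightest one per gene gave 16026 genes. The 4 group means were fitted jointly over the 8 arrays (limma 3.58.1, R 4.3.3, eBayes with a trend, 4 residual and 5.34 prior degrees of freedom), with two-sided p-values. Benjamini-Hochberg adjustment was made within each of 7 contrasts over all genes, and an adjusted p under 0.05 was called. The scripts were tested on simulated data. Python 3.11.15 and matplotlib 3.10.9 made the figures.

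All 10 genes are named, with up to 4 called genes of smallest p from each neuronal list. Genes beyond that rule were chosen after their values were seen: Syn1, Cadps2, Ina, Snap29 and Eno3. The 10 genes, the 18 lists and the rule were chosen with earlier results of these data known, so the lists are not independent support. Alternatives were other normalizations, filters, moderation settings, only the groups compared, array weights, averaged probe sets, a block for the replicate number, and dropping single arrays.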

Additional observations from a re-analysis of the deposited data

How the results depend on the processing

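In MPTP minus Control, 8 of the 10 genes passed with all arrays, and the same 8 passed with arrays centred on their medians, with no filter, with a filter at the 50th percentile, with robust eBayes, with only the groups compared, with array weights and with averaged probe sets. The count was 5 after quantile normalization, 3 after cyclic loess and 3 with eBayes without a trend, and Eno2 passed in all 20 alternatives run, with differences of 0.46 to 0.78. With 1 array left out at a time, the median difference was 0.28 to 0.36. Fewer of the 10 and fewer of all genes then passed without an MPTP, a Control or a hip array. The median, 0.32 with all arrays, was 0.24 after quantile normalization, 0.17 after cyclic loess, 0.48 with arrays centred, and 0.28 without both Control replicate 2 and acupoint replicate 1. Centring moved the median of all genes to 0.22, quantile normalization to 0.10 and cyclic loess to 0.037, against 0.061 as deposited. Over all genes the calls were 2199 higher and 497 lower as deposited, 4028 and 218 with arrays centred, 2047 and 632 after quantile normalization, and 1338 and 752 after cyclic loess. The 10 genes' median exceeded that of genes of like signal by 0.12 as deposited, 0.13 after quantile normalization, 0.12 after cyclic loess and 0.095 without Control replicate 2. The cause of these shifts was not tested.

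The needling counts stayed at 0 of 10 in every alternative run. The acupoint minus MPTP median was 0.0105 after quantile normalization, 0.0123 after cyclic loess, 0.037 with the 2 arrays left out together, and −0.0905 to 0.037 with 1 array left out. The hip minus MPTP median was −0.0539 to −0.0032 with 1 array left out. The acupoint minus hip median was 0.0462 after quantile normalization, 0.0477 after cyclic loess, 0.0353 with the 2 arrays left out together, and −0.0586 to 0.0353 with 1 array left out. In acupoint minus Control the count of 6 was 3 without a trend, 1 with only the groups compared, and 1 to 7 with 1 array left out. In hip minus Control the count of 6 was 2 after cyclic loess, 3 without a trend, and 1 to 8 with 1 array left out. In the mean of the 3 MPTP-treated groups the count of 8 was 5 to 8 with 1 array left out, and Rbfox3 was called lower after quantile normalization (−0.19, limma adjusted p 0.044) and cyclic loess (−0.23, limma adjusted p 0.0264). Differences of uncalled genes among the 10 changed sign in 48 combinations of gene, comparison and setting.

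The titles number separate mice in each group, so a shared number does not pair samples, and deviations of same-numbered arrays from their group means correlated at −0.33 to 0.17 over genes. With the replicate block, 7 of the 10 genes passed in MPTP minus Control, all but Elavl3, 4 in acupoint minus Control, 6 in hip minus Control, 8 in the mean of the 3 groups, and 0 in the 3 needling comparisons. The RMA values carry no detection call, so signal over background is unknown, and 2 arrays a group limit what could be detected.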

Other observations

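Likeness to the 10 genes was measured as Pearson's r over the 8 arrays between a gene and the mean of the 10, each centred on its own mean. The 8 arrays fall into the Control pair and the 6 MPTP-treated arrays, so r is a description of arrays that share that split and gets no p. The 5 most alike among 16016 other genes were Rnaseh2a, a subunit of an enzyme that removes RNA from DNA, Apoe, the main lipid carrier of astrocytes, the autophagy gene Atg101, Fam234b and Enpp5, with r between 0.996 and 0.998. Apoe was at 12.52 and 12.47 in MPTP, 12.36 and 12.49 in acupoint, 12.45 and 12.39 in hip and 11.97 and 11.91 in Control samples. Both Control values of Apoe lay below all 6 MPTP-treated arrays, as for the 8 called neuronal genes. The 3 least alike were Jund, Atxn2l and Dock9, with r between −0.997 and −0.990, and 12.3% of all genes had an r above 0.9.

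Within the set, r with the mean of the other 9 genes was 0.988 for Eno2, 0.972 for Stmn2 and 0.963 for Syp, and 0.376 for Tubb3 and −0.787 for Rbfox3. The mean signal of the 10 genes was 10.52 and 10.49 in MPTP, 10.45 and 10.53 in acupoint, 10.50 and 10.45 in hip and 10.21 and 10.16 in Control samples. The median signal of genes of like brightness followed the same split, with 9.63 and 9.62 in MPTP, 9.54 and 9.64 in acupoint, 9.66 and 9.61 in hip and 9.43 and 9.41 in Control samples. In this median, acupoint replicate 1 was the lowest of the 6 MPTP-treated arrays. The median of probe sets without a symbol, which is low, ran the other way. It was 4.75 on both Control arrays and between 4.25 and 4.39 on the MPTP-treated arrays. The Control arrays were thus lower among bright genes and higher in this dim class. The part of this shift in the differences of the 10 genes was not tested.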
